A study of Mus musculus with 48 samples.

Results

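Nascent RNA of 39 genes was followed in mouse embryonic stem cells (ESCs): the MYC family genes Myc and Mycn and 37 genes whose products make or assemble ribosomes. The genes were taken from a list of symbols, matched to the gene identifiers without their version, and all 39 were found among the 54752 genes of each count table. ESCs of the genotype FOXD3-iKO were treated with 4-hydroxytamoxifen (4HT), which induces depletion of FOXD3, a forkhead transcription factor, or with its solvent ethanol, for 8, 14, 24 or 32 h while cycling. ESCs of the genotype OCT4-tetOff were treated with doxycycline, which depletes OCT4 (Pou5f1), or with water for 16 or 24 h. FOXD3-iKO cells were also arrested with a double thymidine block, released 24 h after 4HT or ethanol, and collected at 0, 1, 2, 3, 4 and 5 h of release. All cells grew in L2i medium, and the solvent-treated cells carry the same inducible alleles as the depleted cells. The labels do not say how many clones the lines stand for or which promoter drives the inducible elements. Each of the 24 groups holds 2 libraries. Newly made RNA was marked with 4-thiouridine (4SU), a uridine analogue, for 30 min in cycling cells and 15 min in synchronized cells.

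Ribosome biogenesis starts in the nucleolus, where RNA polymerase I transcribes the ribosomal RNA precursor. Small nucleolar ribonucleoproteins (snoRNPs) modify that precursor, the small subunit processome cleaves and folds its 5′ part, and large subunit factors such as the PES1-BOP1-WDR12 complex process the rest. MYC and MYCN are E-box binding transcription factors known to activate many of these genes, and ESCs, which divide fast, make ribosomes at a high rate.

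The E-box CACGTG, the sequence that MYC with its partner MAX binds best, was searched in the 300 bases from 250 before to 50 after each gene start in RefSeq's promoters of GRCm38.p6. The motif is its own reverse complement, so each match counts for both strands. Promoters were found for 33 of the 39 genes, the others being Npm1, Rrp12, Fbl, Tcof1, Myc and Bop1. CACGTG lay in a promoter of 7 of the 33 genes (21.2%), against 8.09% of the 27025 genes in the table and 7.15% of all 32851 promoters. Counted from the gene start, the motif began at -60 in Nop2, 37 in Utp20, 2 in Pes1, 40 in Mybbp1a, 23 in Nle1, 17 in Wdr43, and at -215 and -48 in Rrn3. The promoters of 4 genes with the motif that fell after OCT4 loss are shown 5′ to 3′ with CACGTG in capitals, after that of Ncl, which encodes nucleolin and has no match in this window. They lie at chr1:86359406-86359705 on the minus strand (Ncl), chr11:3963725-3964024 on the plus strand (Pes1), chr11:72441077-72441376 on the plus strand (Mybbp1a), chr11:82908346-82908645 on the minus strand (Nle1) and chr16:13780449-13780748 on the plus strand (Rrn3).
Ncl: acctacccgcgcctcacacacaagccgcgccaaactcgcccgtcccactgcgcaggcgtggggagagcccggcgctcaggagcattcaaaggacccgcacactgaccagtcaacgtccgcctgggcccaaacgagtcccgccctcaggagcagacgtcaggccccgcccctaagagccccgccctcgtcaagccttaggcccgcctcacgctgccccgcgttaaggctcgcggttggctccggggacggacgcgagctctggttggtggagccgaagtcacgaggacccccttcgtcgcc
Pes1: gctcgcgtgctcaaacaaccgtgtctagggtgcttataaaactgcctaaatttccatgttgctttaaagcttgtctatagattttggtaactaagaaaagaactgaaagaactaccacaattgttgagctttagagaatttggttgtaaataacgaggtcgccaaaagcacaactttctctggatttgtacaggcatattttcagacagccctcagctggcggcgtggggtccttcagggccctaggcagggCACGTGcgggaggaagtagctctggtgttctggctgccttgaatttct
Mybbp1a: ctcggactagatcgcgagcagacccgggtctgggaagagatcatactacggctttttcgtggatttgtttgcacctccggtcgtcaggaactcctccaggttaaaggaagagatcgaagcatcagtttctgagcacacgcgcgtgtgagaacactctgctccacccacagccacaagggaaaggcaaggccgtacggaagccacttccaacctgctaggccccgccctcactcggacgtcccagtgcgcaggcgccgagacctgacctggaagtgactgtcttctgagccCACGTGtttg
Nle1: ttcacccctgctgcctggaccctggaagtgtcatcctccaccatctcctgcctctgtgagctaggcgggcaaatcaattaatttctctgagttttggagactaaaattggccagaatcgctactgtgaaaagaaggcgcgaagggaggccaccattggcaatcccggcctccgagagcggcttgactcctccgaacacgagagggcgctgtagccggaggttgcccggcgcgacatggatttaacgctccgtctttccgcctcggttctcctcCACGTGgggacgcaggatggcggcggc
Rrn3: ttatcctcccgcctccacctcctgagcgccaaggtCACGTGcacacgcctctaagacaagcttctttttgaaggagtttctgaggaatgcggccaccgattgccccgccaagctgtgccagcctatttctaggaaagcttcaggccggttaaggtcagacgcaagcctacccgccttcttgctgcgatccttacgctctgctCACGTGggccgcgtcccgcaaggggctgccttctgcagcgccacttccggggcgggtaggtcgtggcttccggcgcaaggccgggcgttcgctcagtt
A match describes the letters only, and no binding was measured here.

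Levels are given as CPM (counts per 1e6 counts of a library) after scaling between libraries with edgeR's TMM factors, and a gene was called when its adjusted p from edgeR's quasi-likelihood test (Benjamini-Hochberg over all genes) was under 0.05. Nothing in the labels says that the 2 libraries of a group are separate cultures, and the p-values cover the spread between such libraries alone, which may be technical. A library held 21827951 to 30406124 counts in cycling FOXD3-iKO cells, 21113158 to 26112435 in OCT4-tetOff cells and 7953841 to 17936504 in synchronized cells. The targeted genes went the way of the labels: Foxd3 fell in 4HT cells at 24 h (log2 fold change -1.46 ± 0.24 SE, adjusted p = 0.019), at 32 h (-1.63 ± 0.28, adjusted p = 0.0029) and in synchronized cells (-1.84 ± 0.14, adjusted p = 7.1e-09), and Pou5f1 fell in doxycycline at 16 h (-1.50 ± 0.13, adjusted p = 7.3e-05) and 24 h (-1.83 ± 0.13, adjusted p = 1.1e-05). At 8 and 14 h the Foxd3 change of -1.33 and -1.49 did not pass (adjusted p = 0.39 and 0.14). Of 8 ESC marker genes, 7 were detected in each library group examined. Sox2 had 0 counts in each group and was not tested, so the summed ESC marker levels rest on the other 7. Doxycycline also lowered Foxd3, from 21.2 and 20.2 CPM in water to 2.85 and 1.88 CPM at 24 h (-3.12 ± 0.20, adjusted p = 5.6e-06). In bulk RNA, fewer cells of a type and less RNA per cell cannot be told apart.

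Among the 39 genes, 38 were tested in every comparison. Wdr74, a large subunit assembly factor, had 0 counts in all 48 libraries. Its interval of 4798 bases is covered to 99.7% by another annotated gene on the same strand, so its level cannot be read from these tables. The counted intervals hold introns and ran from 3980 bases (Nhp2) to 149419 bases (Ddx10), with a median of 14682. Per kilobase of interval, Npm1, encoding nucleophosmin, was highest in ethanol cells at 24 h (58 CPM per kb), followed by the snoRNP core gene Nop56 (38.8), Ncl (37.5) and Gnl3 (30.4), encoding nucleostemin. Mycn stood at 14.9 CPM per kb and Myc at 0.7, the lowest of the 38 genes. Per kilobase, the RNA polymerase I genes were low: Polr1b, the second largest subunit, stood at 3.35 and Polr1a, the largest, at 2.2, below the rDNA transcription factor gene Ubtf at 9.46. Without the division by length Mycn measured 86.8 ± 5.29 CPM (SD, n = 2) and Myc 3.49 ± 0.758 CPM (SD, n = 2) in these cells. In OCT4-tetOff cells in water at 16 h the values were 148 ± 18.8 for Mycn and 15.5 ± 2.19 for Myc (SD, n = 2). Mycn was thus above Myc in each group of both lines, as the plot of levels by library shows.

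**Figure D1:**
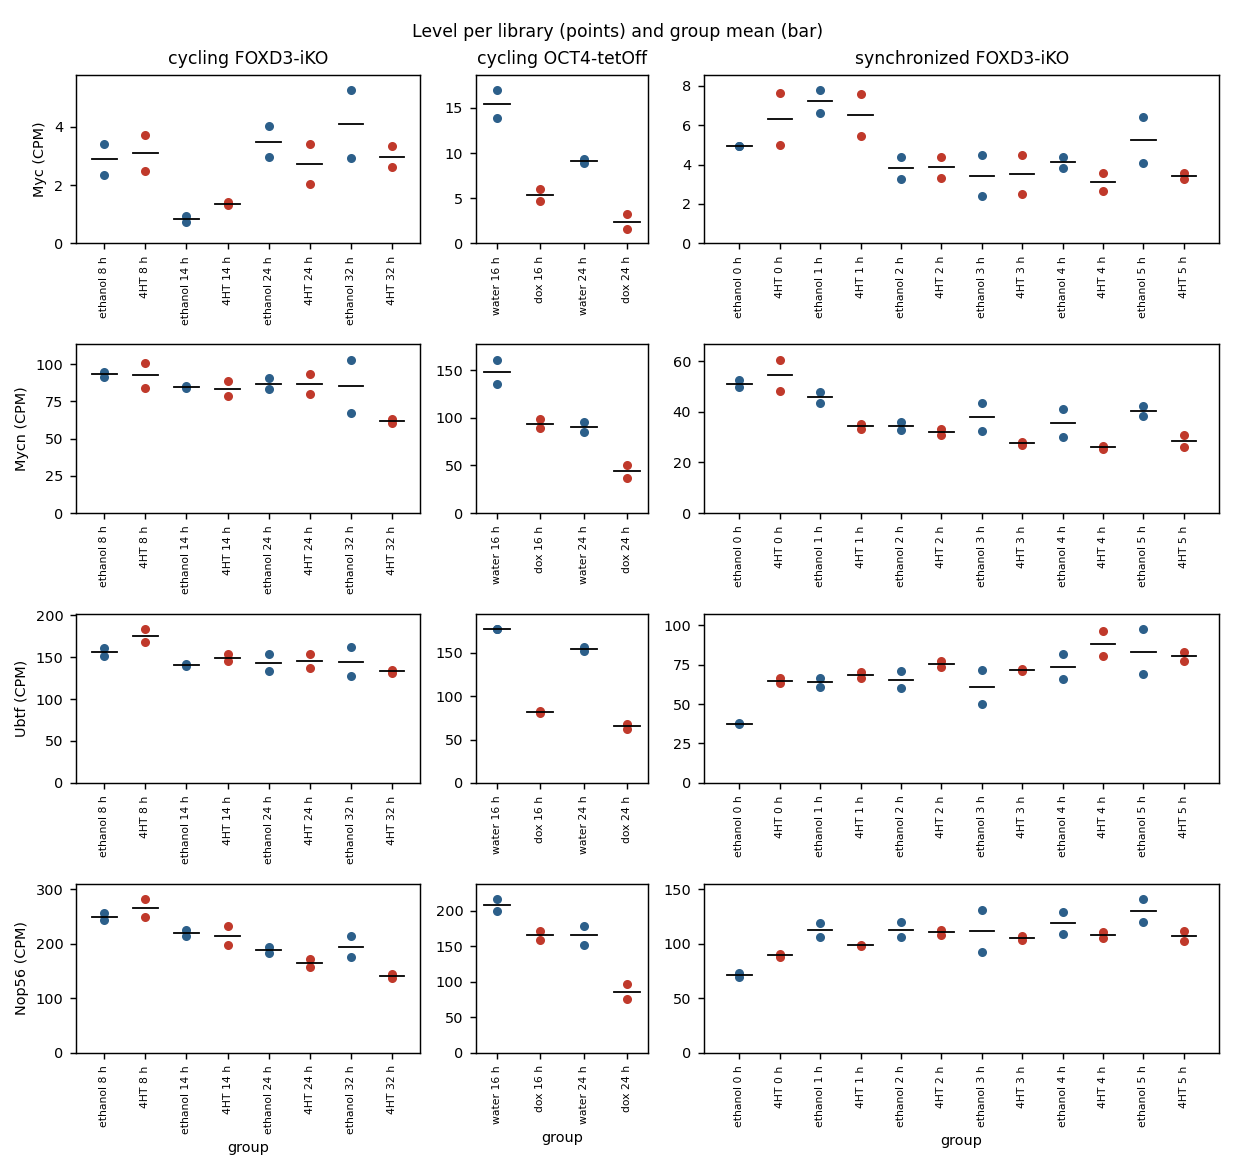
Level in CPM of Myc, Mycn, Ubtf and Nop56 (vertical axes, each from 0) in each library (points) with the mean of the 2 libraries (bar), blue for solvent and red for 4HT or doxycycline; columns are cycling FOXD3-iKO, cycling OCT4-tetOff and synchronized FOXD3-iKO cells. All 4 genes are lower in doxycycline than in water at 16 h and 24 h, while the 4HT and ethanol points of cycling cells overlap or lie close at 8 to 24 h.

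Loss of OCT4 was followed within 16 h by less nascent RNA of both MYC genes and of Ubtf. Myc stood at 13.9 and 17 CPM in water and at 6.03 and 4.68 CPM in doxycycline (-1.53 ± 0.25, adjusted p = 0.0026). Mycn stood at 135 and 161 CPM in water and at 99 and 88.9 CPM in doxycycline (-0.66 ± 0.16, adjusted p = 0.019). Ubtf, encoding the HMG-box factor UBF that opens ribosomal DNA for RNA polymerase I, measured 177 CPM in both water libraries and 82.9 and 80.5 CPM in doxycycline (-1.12 ± 0.09, adjusted p = 7.1e-05). Tcof1, whose product treacle links polymerase I to the nucleolus, fell from 146 and 147 to 115 and 113 CPM (-0.36 ± 0.09, adjusted p = 0.024). Though this adds no support to calls made from the same libraries, water and doxycycline libraries did not overlap for these 4 genes. They were the members called at 16 h: 4 of 38 fell and 0 rose, where 8.91% of all 17713 genes tested fell and 7.94% rose. The median log2 fold change of the 38 genes was -0.14, that of all genes 0.00. Without the second water library, or without either doxycycline library, Myc and Ubtf were called and Mycn and Tcof1 were not (2 genes), and without the first water library Tcof1 alone was lost (3 genes). Scaled to total counts alone, the median of all genes moved to 0.15, and 3 members were lower and 2 higher. When the fit held the groups compared alone, 19 members were lower and 2 higher, where 19.4% of all genes were lower. With the trend on gene length removed from each library, 14 members were lower and 2 higher, where 15.6% of all genes were lower. Cell type markers moved at 16 h too. The summed level of the ESC markers was 2940 to 3040 CPM in water and 1370 to 1450 CPM in doxycycline, with 6 of 7 tested genes lower. The primitive endoderm markers stood at 60.1 to 62.3 and 190 to 191 CPM (5 of 7 tested higher), and the trophectoderm markers at 72.3 to 77 and 124 to 125 CPM (4 of 7 tested higher). The fibroblast markers stood at 6.76 to 7 and 10.3 to 11.6 CPM. The share of counts in Gm26917 and Gm42418, which collect ribosomal RNA reads, was 37.9 and 43% in water and 36.9 and 30.3% in doxycycline. The part of these shifts in the 16 h result was not tested.

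At 24 h of doxycycline each role held members called lower, though 2 of 9 in the small subunit processome is near the share over all genes. Of 38 members 22 fell and 1 rose, where 18.7% of all genes fell and 18.1% rose, and 32 of 38 lay below 0. The median was -0.35 for the members and -0.01 for all genes. Water and doxycycline libraries did not overlap for any of the 23 called genes. The calls were made from these same libraries, so this adds no support to them.

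Both MYC genes were among them. Myc measured 9.32 and 8.88 CPM in water and 3.26 and 1.55 CPM in doxycycline (-1.91 ± 0.27, adjusted p = 0.00072). Mycn measured 95.9 and 84.8 CPM in water and 50.9 and 37.2 CPM in doxycycline (-1.04 ± 0.16, adjusted p = 0.001). In a list of 11 MYC partners and antagonists, 2 fell and 3 rose, where 18.7% of all genes fell and 18.1% rose. Counts in so short a list lie near these shares. Mycl, the third MYC family gene, changed by -2.38 ± 0.21 (adjusted p = 3.2e-05) and Mxd3, a MAX-binding antagonist, by -1.57 ± 0.28 (adjusted p = 0.0022). The antagonist Mxd4 rose by 0.87 ± 0.21 (adjusted p = 0.011), and Mlxipl and Mlxip, whose products pair with MLX, rose by 0.41 ± 0.09 and 0.40 ± 0.11. Of 18 tested genes in a list of other MYC targets, 13 fell and 2 rose. The 3 with the smallest p were Ldha, lactate dehydrogenase (-1.25 ± 0.14), Apex1, a DNA repair nuclease (-1.12 ± 0.15), and Shmt2, mitochondrial serine hydroxymethyltransferase (-0.87 ± 0.13). Ccnd2, encoding cyclin D2 (1.35 ± 0.20), and Smyd2, a lysine methyltransferase gene (0.45 ± 0.09), rose.

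RNA polymerase I and its factors fell in 7 of 8 genes. Ubtf fell most, from 152 and 157 CPM in water to 68 and 62.5 CPM in doxycycline (-1.24 ± 0.10, adjusted p = 1.6e-05). The initiation factor gene Rrn3, whose product carries polymerase I to the rDNA promoter, fell from 170 and 163 to 124 and 121 CPM (-0.44 ± 0.09, adjusted p = 0.0058). Polr1b fell from 68.3 and 69.4 to 55.4 and 55.5 CPM (-0.31 ± 0.08, adjusted p = 0.015). Polr1a measured 173 and 175 CPM in water and 201 and 207 CPM in doxycycline (0.23 ± 0.09, adjusted p = 0.08), so the genes of the polymerase's large subunits went apart in sign, with Polr1a not called. Tcof1 (-0.54 ± 0.09), Nolc1, a nucleolar partner of treacle (-0.66 ± 0.12), Mybbp1a (-0.54 ± 0.12) and the helicase gene Ddx21 (-0.43) also fell. Of 11 further polymerase I genes 5 fell and 0 rose, led by Cd3eap (-0.88 ± 0.14), Polr1c (-0.53 ± 0.11) and the termination factor gene Ttf1 (-0.38 ± 0.09).

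The snoRNP genes were divided. Nop56, a core protein of the methylating box C/D particles, fell from 179 and 151 to 96.2 and 75 CPM (-0.95 ± 0.14, adjusted p = 0.00092). Nhp2, of the pseudouridylating box H/ACA particles, fell from 44.6 and 32.7 to 26.2 and 21.3 CPM (-0.70 ± 0.15, adjusted p = 0.0058), and Rrp9, which binds the U3 snoRNP, fell by 0.55 on the log2 scale (SE 0.10, adjusted p = 0.0033). The other core genes were not called: the methyltransferase gene Fbl changed by -0.12 (adjusted p = 0.31), Nop58 by -0.23, Gar1 by -0.10, and the pseudouridine synthase gene Dkc1 by 0.11. Among 11 other snoRNP proteins and assembly factors 4 fell, including Nop10 (-0.99 ± 0.16), Ruvbl2 (-0.54 ± 0.10) and Snu13 (-0.57 ± 0.12). Of the abundant nucleolar proteins, Ncl fell from 585 and 491 to 420 and 391 CPM (-0.41 ± 0.12, adjusted p = 0.027), and Npm1 was not called (-0.32, adjusted p = 0.12). Ncl, Nop56, Nop58, Wdr43 and Gnl3 hold named snoRNA genes in their intervals, whose reads were not separated here.

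Of the small subunit processome 2 of 9 genes fell. These were Noc4l, from 13.7 and 13.8 to 10.6 and 7.49 CPM (-0.60 ± 0.16, adjusted p = 0.017), and Rrp12, from 41.2 and 41.7 to 33.2 and 31.7 CPM (-0.35, adjusted p = 0.013). Utp20 (-0.03), Nat10 (0.01), Bms1 (0.04) and Ddx10 (0.19) lay near or above 0. Of 32 other small subunit factors 10 fell, among them Wdr46 (-0.58 ± 0.11), Imp3 (-0.98 ± 0.19) and Pwp2 (-0.50 ± 0.10), and Dcaf13 rose (0.29 ± 0.10). Large subunit assembly fell in 7 of 10 genes tested. Gnl3 fell from 212 and 177 to 134 and 113 CPM (-0.66 ± 0.13, adjusted p = 0.0035), Nip7 from 51.8 and 38.9 to 34.9 and 24.2 CPM (-0.62 ± 0.17, adjusted p = 0.021), and Pes1, Noc2l, Nop2, Rrp1b and Nle1 changed by -0.46 to -0.35. Bop1, the partner of Pes1, was the single member that rose, from 43 and 44.2 to 51.3 and 53 CPM (0.26 ± 0.08, adjusted p = 0.033). The strand setting of the counting is not given, and 79.9% of the Pes1 interval is covered by a gene on the opposite strand, so its value is uncertain. Of 39 other large subunit factors 15 fell and 0 rose, including Senp3 (-0.71 ± 0.10), Ppan (-0.61 ± 0.13) and Rrs1 (-0.72 ± 0.16).

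Genes with CACGTG in the promoter fell in 5 of 7 cases at 24 h of OCT4 loss, and tested genes without it in 14 of 25. Together the 93 other biogenesis genes fell in 34 cases and rose in 1, with a median of -0.26. Without the first water library or the second doxycycline library of 24 h, 15 members were called. When the fit held the groups compared alone, 11 were called, all lower, and with total counts alone 14, all lower. The shares of all genes called in these fits are not given here, so the counts show only how far the number moved. Markers of other cell types moved with this comparison. The summed level of the 8 ESC markers went from 2690 to 2710 CPM in water to 956 to 1060 CPM in doxycycline, with 7 of 7 tested genes lower. The 8 primitive endoderm markers went from 61.2 to 65.5 CPM up to 238 to 254 CPM (6 of 7 tested higher) and the 8 trophectoderm markers from 56.5 to 60.9 CPM up to 127 to 154 CPM (4 of 7 tested higher). The 8 fibroblast markers stood at 7.34 to 8.61 and 10.2 to 11.4 CPM, with 3 of 8 at 0. The share of counts in Gm26917 and Gm42418, genes that collect ribosomal RNA reads, was 26 and 27.3% in water and 18.1 and 21% in doxycycline. The part of these shifts in the members' fall was not tested.

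**Figure D2:**
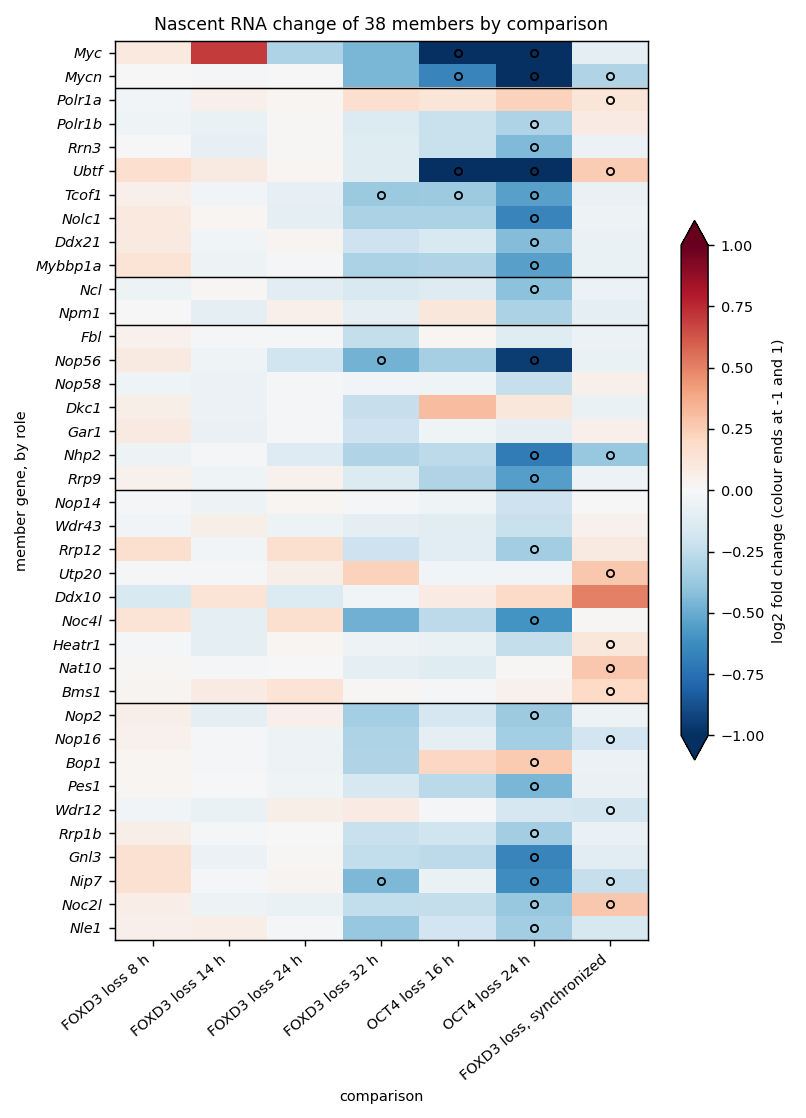
Log2 fold change (colour, ending at -1 and 1) of the 38 tested members (rows, by role, with lines between roles) in 7 comparisons of depleted with solvent cells (columns); circles mark calls at an adjusted p under 0.05. The columns of FOXD3 loss at 8, 14 and 24 h hold no circle and are pale apart from Myc at 14 h (0.70), OCT4 loss at 24 h holds 23, of which Bop1 alone is higher, and the synchronized column holds 7 higher and 5 lower.

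No member was called for a difference of the OCT4 response between 24 and 16 h (0 by edgeR, 1 at an unadjusted p under 0.05, 0 by DESeq2; 0% of all genes were called), which does not show that the responses were alike. Among all 17713 genes, 1952 had an unadjusted p under 0.05 for this difference. The difference lay below 0 in 32 of 38 members, with a median of -0.19 against 0.00 for all genes. In the water cells themselves 0 members were called between 24 and 16 h (0% of all genes), and DESeq2 called 1 member, Mycn. At an unadjusted p under 0.05 there were 15 members, of which 14 were lower at 24 h. Among all 17713 genes, 4119 passed this threshold, of which 1624 were lower. The median of the members was -0.18 against 0.01 for all genes. Without the first or second doxycycline library of 24 h, which enter the estimate of the spread, 6 and 7 were called. Mycn stood at 135 and 161 CPM at 16 h and at 95.9 and 84.8 CPM at 24 h in water. Both comparisons share the water libraries with the responses to doxycycline.

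Loss of FOXD3 in cycling cells left the same genes without a call for 24 h. At 8, 14 and 24 h edgeR called 0 members, 0 had an unadjusted p under 0.05, and DESeq2 called 0. The backgrounds were low as well: 0.0107, 0.016 and 0.481% of 18707 genes were called, and 528, 750 and 1579 had an unadjusted p under 0.05. Mycn measured 83.1 and 90.6 CPM in ethanol and 80.2 and 93.2 CPM in 4HT (0.00 ± 0.16, adjusted p = 1). Ubtf measured 133 and 154 CPM in ethanol and 137 and 154 CPM in 4HT (0.02 ± 0.12, adjusted p = 0.99). Myc was at 2.95 and 4.03 CPM in ethanol and 2.05 and 3.4 CPM in 4HT (-0.31 ± 0.31, adjusted p = 0.91). It was lowest in both arms at 14 h, at 0.72 and 0.938 CPM in ethanol and 1.41 and 1.32 CPM in 4HT (0.70, adjusted p = 1). Polr1a, Polr1b and Rrn3 changed by 0.02 ± 0.09, 0.01 ± 0.08 and 0.01 ± 0.08.

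At 32 h of 4HT 3 members fell and 0 rose, where 4.59% of all genes fell and 4.88% rose. Nop56 went from 176 and 214 CPM in ethanol to 145 and 137 CPM in 4HT (-0.47 ± 0.12, adjusted p = 0.024). Nip7, a large subunit assembly factor, went from 54.1 and 69.3 to 46.4 and 43.7 CPM (-0.45 ± 0.11, adjusted p = 0.018). Tcof1 went from 115 and 137 to 98.8 and 97.1 CPM (-0.37 ± 0.10, adjusted p = 0.033). The groups, which gave the calls, did not overlap for these 3 genes, but the ethanol libraries lay far apart. In all, 34 of 38 members lay below 0, with a median of -0.21 against -0.05 for all genes, and 18 had an unadjusted p under 0.05, of which 17 were lower. Of all 18707 genes, 4549 had an unadjusted p under 0.05, of which 2634 were lower. Mycn measured 67.5 and 103 CPM in ethanol and 63.4 and 60.3 CPM in 4HT (-0.46 ± 0.16, adjusted p = 0.085), and Myc changed by -0.46 ± 0.31 (adjusted p = 0.4). Ubtf (-0.12 ± 0.12), Rrn3 (-0.12 ± 0.08), Polr1b (-0.14 ± 0.08) and Polr1a (0.17 ± 0.09) were not called, nor was the member with the smallest p among the processome genes, Noc4l (-0.48 ± 0.17, adjusted p = 0.099). Of the abundant nucleolar proteins Ncl had the smaller p (-0.15 ± 0.09, adjusted p = 0.37).

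Outside the 39 genes, 5 of 93 other biogenesis genes fell at 32 h and 1 rose (median -0.12), where 4.59% of all genes fell and 4.88% rose. The count of fallen genes is thus near the share over all genes. Imp3 (-0.74 ± 0.18), Rrs1 (-0.71 ± 0.18), Ppan (-0.62 ± 0.15), Nop10 (-0.58 ± 0.14) and Polr1c (-0.48 ± 0.13) fell, and Ttf1 rose (0.33 ± 0.08). Of 18 other MYC targets 3 fell, namely Ldha (-0.80 ± 0.12), Shmt2 (-0.82 ± 0.17) and Apex1 (-0.62 ± 0.13), and 1 rose, Tert, encoding telomerase (0.67). The antagonist Mxd4 rose by 0.68 ± 0.18, the single call among 11 MYC partners and antagonists.

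The count at 32 h rested on single libraries. With each library left out in turn the median of the members ran from -0.30 to -0.13, and the number of calls was not stable. The first ethanol library had 14.3% of its counts in Gm26917 and Gm42418, the second 28%, and the 4HT libraries 13.9 and 12.5%; the part of this in the result was not tested. Scaled to total counts alone, the median of all genes moved to 0.12, and 1 member (Utp20) was higher and 0 lower. The summed level of 8 primitive endoderm markers was 69.4 to 78 CPM in ethanol and 92.8 to 94.8 CPM in 4HT (3 of 7 tested higher), that of 8 trophectoderm markers 48.1 to 67.4 and 86.4 to 89.3 CPM (2 of 7 tested higher), and that of 8 ESC markers 2650 to 2810 and 2390 to 2440 CPM (0 of 7 called). Their part in the result was not tested either.

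No member was called for a difference of the FOXD3 response between 32 and 24 h (0 by edgeR, 4 at an unadjusted p under 0.05, 0 by DESeq2; 0% of all genes), and without the first ethanol library of 32 h 5 were called. Among all 18707 genes, 1395 had an unadjusted p under 0.05 for this difference. The difference lay below 0 in 34 of 38 members, with a median of -0.18 against -0.02 for all genes. Ethanol cells themselves rose between these times in 5 members and fell in 0, where 2.7% of all genes rose. Rrn3 went from 135 and 133 CPM at 24 h to 198 and 190 CPM at 32 h (0.54 ± 0.08, adjusted p = 0.0033). Wdr12 (0.47, adjusted p = 0.01), Npm1 (0.41, adjusted p = 0.022), Heatr1 (0.38, adjusted p = 0.023) and Utp20 (0.37, adjusted p = 0.04) were also higher at 32 h. This comparison shares the ethanol libraries of 32 h with that of FOXD3 loss. Without the first or second ethanol library of 24 h 0 and 1 members were called, and without the second of 32 h 12.

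A joint fit of the 8 libraries of 24 h compared the responses directly. They differ in line, drug and depleted factor at once, and these cannot be told apart. Foxd3 itself changed by -3.12 in doxycycline and by -1.46 in 4HT. Doxycycline lowered 8 of 38 members more than 4HT did and 0 less, where 9.08% of 18437 genes were lower and 7.4% higher. The 8 were Ubtf (difference of log2 fold changes -1.27 ± 0.17, adjusted p = 0.00094), Mycn (-1.04 ± 0.22, adjusted p = 0.0098), Rrp9 (-0.59 ± 0.14, adjusted p = 0.017), Rrp12 (-0.52 ± 0.13, adjusted p = 0.026), Nop56 (-0.76 ± 0.21, adjusted p = 0.033), Myc (-1.60 ± 0.45, adjusted p = 0.036), Gnl3 (-0.67 ± 0.20, adjusted p = 0.043) and Noc4l (-0.77 ± 0.23, adjusted p = 0.044). The median difference was -0.35, against -0.02 for all genes. Ddx10 (0.33 ± 0.27), Bop1 (0.30 ± 0.15) and Polr1a (0.20 ± 0.16) had the largest differences above 0, and none of them was called. Of the 93 other biogenesis genes 11 were lower and 0 higher. Ubtf was called with any library left out, but the count moved from 8 to 1 or 2 without the first or second ethanol library, 5 or 2 without the first or second 4HT library, 3 without the first water library, and 13 or 4 without the first or second doxycycline library.

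**Figure D3:**
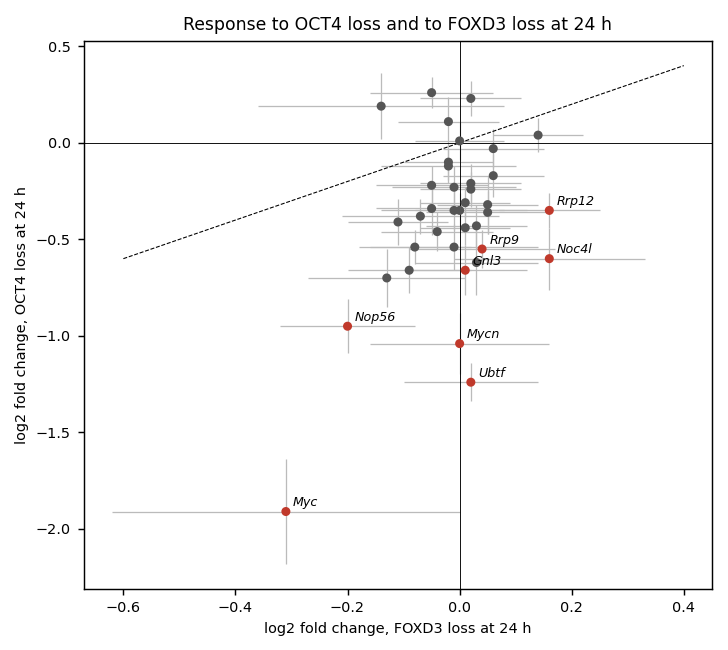
Log2 fold change of the 38 members at 24 h of FOXD3 loss (horizontal) and of OCT4 loss (vertical), with bars of 1 SE; the dashed line marks equal responses, and the 8 genes whose responses differ are red and named. On the horizontal axis the points sit within 0.31 of 0, while on the vertical axis they reach down to -1.91 for Myc.

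Values were compared with the length of the gene interval. Over the 38 members, Spearman's rho between interval length and log2 fold change was 0.64 at 24 h of OCT4 loss and 0.76 at 32 h of FOXD3 loss, against 0.31 and 0.30 over all genes; these are descriptions across genes, which share libraries and are not independent replicates. At 24 h of OCT4 loss, 10 of 13 members under 10 kb fell, with a median of -0.62 (of all genes of that length 26.2% fell, with a median of -0.27). Of 11 members over 30 kb 3 fell, with a median of -0.22 (of all genes of that length 12.9% fell, with a median of 0.19). At 32 h of FOXD3 loss the medians were -0.32 (all genes: -0.21) under 10 kb and -0.05 (all genes: 0.02) over 30 kb. With the trend on length removed from each library, 28 members were lower and 2 higher at 24 h of OCT4 loss, with a median of -0.34, and 24.3% of all genes were lower in that fit. At 32 h of FOXD3 loss 8 were then lower, with a median of -0.14, and 6.62% of all genes were lower.

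**Figure D4:**
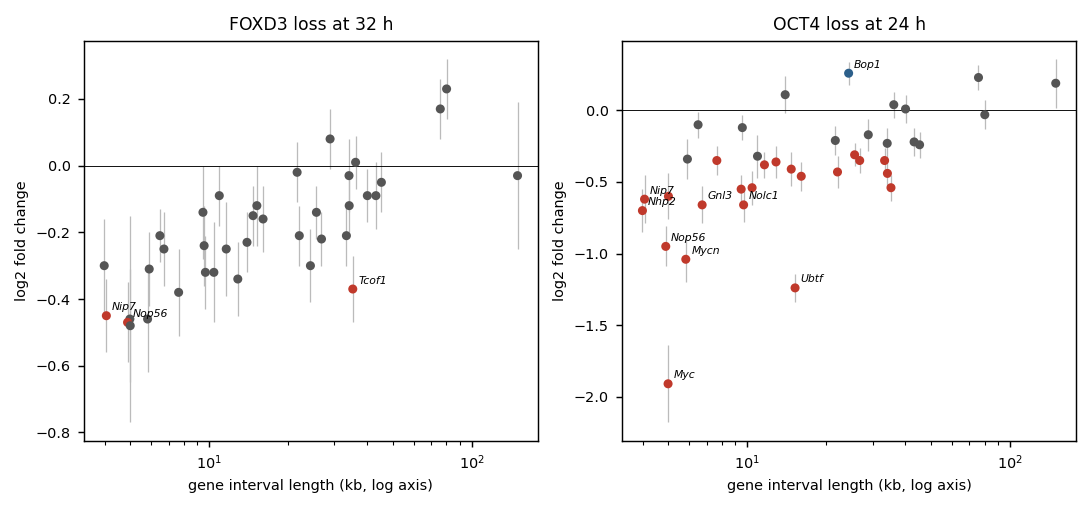
Log2 fold change with 1 SE of the 38 members (vertical) by the length of the counted interval in kb (horizontal, log axis), at 32 h of FOXD3 loss (left) and 24 h of OCT4 loss (right); red marks members called lower and blue the single gene called higher, Bop1. Values rise with length in both panels, and Ubtf at -1.24 and Tcof1 at -0.54 lie below members of like length at OCT4 loss.

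In ethanol cells leaving the thymidine block, an arrest at the start of DNA synthesis, nascent RNA of many members rose. An F test over the 5 times against 0 h called 10 of 38 members higher and 0 lower by their largest difference, where 9.3% of 17739 genes were higher and 10.1% lower. Ubtf measured 37.2 and 38 CPM at 0 h, 60.7 and 66.7 CPM at 1 h and 97.3 and 69.2 CPM at 5 h (largest difference 1.15, adjusted p = 0.0041). Nop56 stood at 69.7 and 72.8 CPM at 0 h and at 141 and 120 CPM at 5 h (0.87, adjusted p = 0.0059). Mybbp1a, whose product binds MYB and acts in the nucleolus, stood at 58.4 and 63.2 CPM at 0 h and at 127 and 88.3 CPM at 5 h (0.82, adjusted p = 0.02). Tcof1 (0.79, adjusted p = 0.009), Bop1 (0.79, adjusted p = 0.014), Nle1 (0.73, adjusted p = 0.014), Nop2 (0.62, adjusted p = 0.0041) and Gnl3 (0.53, adjusted p = 0.016) followed, with Polr1b (0.44, adjusted p = 0.015) and Utp20 (0.36, adjusted p = 0.022; -0.29 with total counts alone). By 1 h, 13 members were already above 0 h and 0 below (10.4% of all genes higher), with a median of 0.29 against -0.07 for all genes, and at 5 h 15 were above (11.8%). At 2, 3 and 4 h 13, 12 and 13 members were above 0 h, where 8.58, 10.3 and 8.87% of all genes were higher. Mycn went the other way, from 52.5 and 49.8 CPM at 0 h to 35.8 and 32.9 CPM at 2 h, and was not called over the 5 times (-0.58, adjusted p = 0.058). At single times it was called lower at 2 h (-0.58 ± 0.15, adjusted p = 0.019; 7.19% of all genes were lower) and at 4 h (-0.52 ± 0.15, adjusted p = 0.029; 9.48% of all genes), the 1 member called lower at each. The largest difference lay below 0 in 5 of 38 members, with 0 of them called over the 5 times. Nop58 went from 732 and 805 CPM at 0 h to 515 and 548 CPM at 1 h, not called at that single time (-0.53 ± 0.21, adjusted p = 0.087). Of 93 other biogenesis genes 18 rose and 0 fell.

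These counts rested on the 0 h libraries: without either of them 2 members were called, and with the ethanol libraries fitted alone 0. Without the first or second library of 3 h, 19 and 24 were called, and without the first of 4 h 16. With total counts alone 4 were called, all higher. Ethanol libraries at 0 h had 3.41 and 4.92% of their counts in Gm26917 and Gm42418, and those of 1 to 5 h between 3.83 and 25.4%; the part of this in the rise was not tested.

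In 4HT cells the release changed 4 members, 2 higher and 2 lower, where 6.76% of all genes were higher and 8.61% lower. Mycn fell from 60.6 and 48.4 CPM at 0 h to 25.5 and 26.3 CPM at 4 h (largest difference -1.08, adjusted p = 0.0012). Rrn3 fell (-0.36, adjusted p = 0.035), and Tcof1 (0.66, adjusted p = 0.027) and Utp20 (0.50, adjusted p = 0.018) rose; with total counts outside Gm26917 and Gm42418 as the scale, 4 members were called, all lower. Ubtf was at 66.2 and 63.3 CPM at 0 h and reached 82.7 and 77.6 CPM at 5 h. Ethanol cells had 37.2 and 38 CPM at 0 h, a difference that was not called (0.79 ± 0.17, adjusted p = 0.06). The share of counts in Gm26917 and Gm42418 at 0 h was 19.7 and 15.6% in 4HT and 4.92 and 3.41% in ethanol cells. The part of this in the difference was not tested. No member was called for a 4HT response that differed between release times (0 by edgeR, 0 by DESeq2, and 0% of all genes). At an unadjusted p under 0.05 there was 1 member, and 882 of all 17739 genes. The courses of the arms were thus shown neither to differ nor to be alike. Leaving out single 4HT libraries moved the count to 0 without the first of 0 h, to 1 without the second of 5 h, and to 2 without the second of 0 h, either of 2 h or 4 h, or the first of 3 h; Mycn was lost without the first of 0 h.

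**Figure D5:**
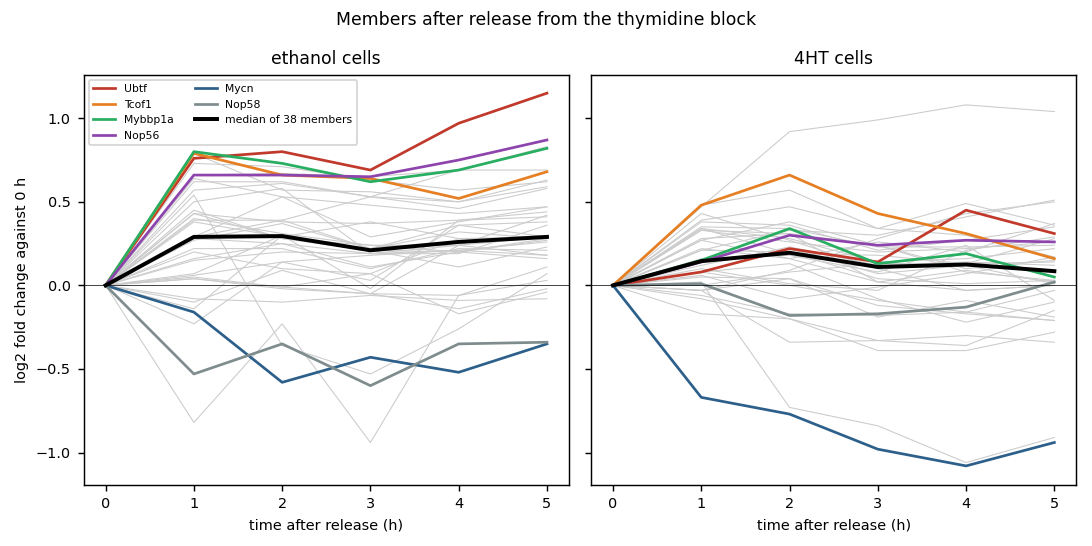
Log2 fold change against 0 h of the 38 members (grey lines) and their median (black) by hours after release from the thymidine block, in ethanol cells (left) and 4HT cells (right), with 6 members in colour. The median of ethanol cells is 0.29 at 1 h and at 5 h, that of 4HT cells 0.15 and 0.09, and Mycn lies below 0 in both panels.

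In a fit over the 6 release times that adjusts for time, 4HT raised 7 of 38 members and lowered 5. Of all genes 18.6% rose and 18.4% fell, so neither count of members lies above the share over all genes. The small subunit processome held 4 of the higher genes and 0 of the lower: Utp20 (0.27 ± 0.05, adjusted p = 0.00044), the RNA acetyltransferase gene Nat10 (0.27 ± 0.05, adjusted p = 0.00045), the GTPase gene Bms1 (0.20 ± 0.04, adjusted p = 0.00077) and Heatr1 (0.11 ± 0.04, adjusted p = 0.03). Of the 32 other small subunit factors 2 rose and 11 fell. The 4 higher processome genes have intervals of 36094 to 80198 bases. Over 30 kb the median was 0.11 for 11 members and 0.15 for all genes. With the trend on length removed, Utp20 and Heatr1 were not called. With total counts alone Polr1a, Heatr1 and Bms1 turned to -0.09, -0.10 and -0.01. Polr1a (0.12 ± 0.03, adjusted p = 0.0046), Ubtf (0.25 ± 0.08, adjusted p = 0.021) and Noc2l (0.27 ± 0.09, adjusted p = 0.024) were the other members called higher. Nhp2 (-0.38 ± 0.06, adjusted p = 7.8e-05), Mycn (-0.30 ± 0.07, adjusted p = 0.0032), Nip7 (-0.23 ± 0.06, adjusted p = 0.0039), Nop16 (-0.19, adjusted p = 0.023) and Wdr12 (-0.18, adjusted p = 0.03) fell, and Myc was not called (-0.10 ± 0.14, adjusted p = 0.58). At 3 h, for example, Mycn stood at 43.3 and 32.6 CPM in ethanol and at 28.2 and 27 CPM in 4HT. Across the 12 libraries of each arm the values of all 12 called genes overlapped, and at single release times 1 member was called, Nhp2 at 3 h (-0.59 ± 0.15, adjusted p = 0.042, where 1.21% of all genes were lower). Of 7 trophectoderm markers tested 2 were higher in 4HT and 1 lower, and of 6 primitive endoderm markers 2 and 2. Of 7 ESC markers 2 were higher and 0 lower. At 0 h the summed trophectoderm markers stood at 43.2 to 53.4 CPM in ethanol and 74.4 to 77.3 CPM in 4HT. The part of these shifts in the result was not tested.

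The split between higher and lower depended on the scale. With total counts alone the median of all genes moved to -0.21 and 24 members were lower and 0 higher, with a member median of -0.27. With total counts outside Gm26917 and Gm42418, 20 were lower and 1, Utp20, higher. There the member median was -0.22 and that of all genes -0.17, against -0.06 and -0.01 with TMM factors. The shares of all genes called on these scales are not given here, so the counts show only how far the split moved. Spearman's rho with interval length was 0.63 over the members and 0.47 over all genes. Of 13 members under 10 kb 4 fell, where 31.9% of all genes of that length fell. Of the 93 other biogenesis genes 11 rose and 22 fell. Nhp2 and Mycn were called lower in all 32 alternatives run, which include leaving out each library.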

How the data were processed

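The deposited values are raw counts of 4SU-labelled RNA for each gene, in 3 tables of 16, 8 and 24 libraries. Extraction used Trizol LS and libraries the KAPA RNA HyperPrep kit, per the labels' protocols. STAR, featureCounts and the build mm10 are named in the submitters' processing notes. Versions, strand setting and treatment of multiply mapped reads are not given in these sources. The given length equals the whole interval in all 54752 genes, so introns lie inside it, and 54723 IDs matched a name without their version. 0 pairs of replicates held identical counts. A floor of 3 counts is 0.0987 to 0.377 CPM per library and covers counting error only.

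Each fit held a whole table, with 1 mean per group (R 4.3.3, edgeR 4.0.16 with limma 3.58.1, quasi-likelihood test, TMM, filterByExpr with a minimum count of 10), adjusted by Benjamini-Hochberg over all genes and called at 0.05. SE is the log2 fold change over the square root of F. Release courses used an F test of 5 contrasts, and the effect over release times had time as a covariate. The scripts were tested on simulated data. Alternatives were DESeq2 1.42.0, RLE factors, total counts with and without Gm26917 and Gm42418, no low-count filter, the compared groups alone, a replicate block, removal of a length trend and leaving out each library.

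The members, lists, named genes, tests and alternatives were chosen with earlier results of these data known, so no list is independent evidence of its direction. Full statistics were planned for Myc, Mycn, Polr1a, Polr1b, Rrn3 and Ubtf and for the called members with the largest changes (at most 8 each way). In each role they were also planned for the member with the smallest p at 24 h of OCT4 loss and 32 h of FOXD3 loss. In several comparisons some of these values are left out or given in part. Of other lists, the called genes with the smallest p were to be named (at most 3 each way). Promoters were to be shown for Myc and Ncl and up to 4 genes with CACGTG.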

Additional observations from a re-analysis of the deposited data

Results flagged for a closer look

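For 8 members the responses to OCT4 and FOXD3 loss at 24 h differed in the joint edgeR test. The difference, OCT4 loss minus FOXD3 loss on the log2 scale, was -1.60 for Myc (9.32 and 8.88 CPM in water, 3.26 and 1.55 in doxycycline; 2.95 and 4.03 in ethanol, 2.05 and 3.4 in 4HT). It was -1.27 for Ubtf and -1.04 for Mycn, -0.77 for Noc4l, -0.76 for Nop56, -0.67 for Gnl3, -0.59 for Rrp9 and -0.52 for Rrp12. In each of the 8 genes both doxycycline libraries were below both water libraries, but the calls were made from these libraries. The call of Ubtf held in all 15 alternatives, that of Mycn in 14 and that of Rrp9 in 12. Myc held in 9, Nop56 in 8, Gnl3 and Rrp12 in 6 and Noc4l in 4. The lines were deposited as separate tables, and the control levels differed, Myc standing at 8.88 to 9.32 CPM in water and 2.95 to 4.03 CPM in ethanol. Line, drug and depleted factor cannot be told apart here.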

How the results depend on the processing

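The counts of called members at 8, 14 and 24 h of FOXD3 loss were 0 under every alternative and with each library left out. Against 3 at 32 h, total counts alone and total counts outside Gm26917 and Gm42418 each called 1, removal of the length trend 8 and the compared groups alone 0. Against 5 between ethanol cells of 32 and 24 h, total counts alone called 3, totals outside those genes 1, no low-count filter 3, length trend removed 15, the compared groups alone 0 and DESeq2 11. Against 4 at 16 h of OCT4 loss, length trend removed called 16 and the compared groups alone 21; against 23 at 24 h, total counts alone called 14 and the compared groups alone 11. Between OCT4 responses (0), no filter and length trend removed each called 1. Between water cells (0), total counts alone called 2, no filter 6, length trend removed 8 and DESeq2 1. For OCT4 minus FOXD3 loss (8), total counts alone called 4 and length trend removed 21. For FOXD3 loss over release (12), total counts alone called 24 and totals outside those genes 21. Over release in ethanol cells (10), total counts alone called 4, the compared groups alone 0 and DESeq2 16; in 4HT cells (4) the values were 2, 12 and 7. Between release responses (0), no filter called 1. The causes were not tested. These counts, and those with a library left out, stand here without the share of all genes called in the same fit. They show only how far each count moved.

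Leaving out each library gave 0 to 21 at 32 h, 0 to 5 for 32 minus 24 h, 0 to 12 between ethanol cells, 2 to 5 and 15 to 27 at 16 and 24 h of OCT4 loss, 0 to 0 between OCT4 responses, 0 to 7 between water cells, 1 to 13 for OCT4 minus FOXD3 loss, 9 to 14 over release, 2 to 24 and 0 to 6 in the ethanol and 4HT courses, and 0 to 0 between release responses. Replicate numbers do not pair the samples by the labels, and the correlation of same-numbered deviations ran from -0.11 to 0.42 over the comparisons; with a replicate block 5 members were called for OCT4 minus FOXD3 loss, 1 between water cells, and 20 and 8 in the ethanol and 4HT release courses, while every other count stayed within 1.5 times. Of called members, 8 values reversed: over release Polr1a (-0.09 with total counts alone, -0.04 with totals outside those genes, -0.03 with length trend removed), Heatr1 (-0.10 and -0.06) and Bms1 (-0.01, total counts alone), and in the ethanol course Utp20 (-0.29 with total counts alone, -0.34 without the first library of 0 h, and 0.57 at most with a library left out). Of the other values, 1286 kept direction and call and 282 lost the call. At 24 h of OCT4 loss Myc, Mycn, Ubtf, Nop56, Nolc1, Nhp2, Gnl3, Rrp9, Tcof1 and Pes1 kept the call in all 16 alternatives. With 2 libraries per group, small changes may go uncalled.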
